A study of Mus musculus with 14 samples.

Results

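miR-150 is a microRNA made from the Mir150 gene, and both strands of its hairpin were measured here: mmu-miR-150-5p and mmu-miR-150-3p. They were taken by name from the 1247 miRNAs of an Agilent mouse miRNA array, so these 2 miRNAs were followed over all 14 arrays of the study. Each array carried Cy3-labelled RNA pooled from 3 male C57BL/6 mice aged 6 to 8 weeks, and tissue was taken 12 h after irradiation with 0 or 8 Gy of gamma-rays. Bone marrow gave 10 arrays, from 5 pretreatment arms that each had 1 pool per dose. One arm received the vehicle, phosphate-buffered saline (PBS), by intraperitoneal injection (i.p.) and another received it by gavage (i.g.). The third arm received 10 mg/kg of amifostine, a thiol prodrug used to protect tissue from radiation, and the fourth 0.2 mg/kg of CBLB502, a flagellin-derived agonist of Toll-like receptor 5, both i.p. and 0.5 h ahead of irradiation. The last received 150 mg/kg of nilestriol, an oestrogen with long action, i.g. and 48 h ahead. Hypothalamus gave 4 arrays, from the i.p. PBS and the amifostine arms at both doses. With 1 pool per condition there is no biological replicate of any condition, and the spread in each test is that between arms, routes or doses.

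Mature miRNAs guide the Argonaute complex to messenger RNAs through their seed, the bases near the 5′ end that pair with the target. miR-150 is abundant in mature B and T lymphocytes and low in most other cells, and its best known target is Myb, a transcription factor that lymphocyte progenitors need. The 5p strand is the one usually loaded into Argonaute, and the 3p strand comes from the other arm of the same hairpin. Lymphocytes are among the most radiation-sensitive cells of the marrow.

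Mir150 lies on chromosome 7 of GRCm38.p6, from 45121757 to 45121821, in RefSeq's annotation. It overlaps no other annotated gene. RefSeq's tables of mature miRNAs matched 1017 of the 1247 array miRNAs and 1 of the 2 strands, miR-150-3p, which spans chr7:45121798-45121819 on the plus strand. It is printed 5′ to 3′ because its seed decides which other miRNAs could share its targets, and the capitals mark the seed, bases 2 to 8.
mmu-miR-150-3p: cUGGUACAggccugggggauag
No other matched miRNA of the array shared this seed.

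The array reads each strand through DNA probes complementary to its 3′ end, and the probes are shown because the 3p result turned on their length. Capitals mark the bases that a longer probe has beyond the shortest one of the same strand. The positions given are those of the deposited scanner files, whose headers name build mm9. The 5p probes had 20 spots each and the 3p probes 10 spots each, so that either strand rested on 40 spots per array.
miR-150-5p, 15 bases: cactggtacaagggt
miR-150-5p, 16 bases: cactggtacaagggtT
miR-150-3p, 10 bases: ctatccccca
miR-150-3p, 11 bases: ctatcccccaG
miR-150-3p, 12 bases: ctatcccccaGG
miR-150-3p, 13 bases: ctatcccccaGGC
The longest 5p probe lies at chr7:52377138-52377153 and the longest 3p probe at chr7:52377177-52377189. The 13-base probe pairs with bases 10 to 22 of mature miR-150-3p, outside its seed. Both 5p probes contain the letters of the 3p seed, since the strands face each other in the hairpin.

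The scanner software called 332 to 403 miRNAs detected on the bone marrow arrays and 478 to 582 on the hypothalamus arrays, and no spot was saturated. The tissues matched their labels: miR-124-3p, miR-9 and the other neuronal miRNAs were all 5 detected on each hypothalamus array, against 1 of 5 on each bone marrow array. Levels below are log2 signals after dividing each array by the 75th percentile of those miRNAs that every array in the comparison detected. The arrays lay on 3 slides, each a scan batch: slide 1 held bone marrow PBS and CBLB502 and hypothalamus PBS, slide 2 bone marrow amifostine and nilestriol, and slide 3 hypothalamus amifostine. Both doses of an arm shared a slide, but in bone marrow an effect of amifostine or of nilestriol and one of slide 2 cannot be told apart. In hypothalamus an effect of amifostine and one of slide 3 cannot be told apart either. Between the tissues, the amifostine arrays set slide 2 against slide 3, and only the PBS arrays shared a slide.

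miR-150-5p was well measured in every sample. All of its 20 spots per probe stood above background on each of the 14 arrays, and its spots varied by a median coefficient of variation of 5.38% for the shorter and 3.69% for the longer probe in bone marrow.

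In unirradiated marrow, miR-150-5p gave signal intensities of 283.9 after i.p. PBS, 389.9 after i.g. PBS, 388.2 after amifostine, 344.1 after CBLB502 and 232.2 after nilestriol. At 8 Gy the same arms gave 266.8, 242.9, 199.0, 141.3 and 177.9. On the scaled log2 scale these were 0.27, 0.28, 0.34, 0.24 and -0.51 at 0 Gy, and -0.03, -0.52, -0.22, -0.96 and -0.66 at 8 Gy. The 4 unirradiated arrays without nilestriol lay close together and above every irradiated array, and the doses overlapped through the unirradiated nilestriol array alone. The mean was 0.13 ± 0.35 (SD, n = 5 arms) at 0 Gy and -0.48 ± 0.36 (SD, n = 5) at 8 Gy. Ordered by level, no neighbouring pair of bone marrow arrays was more than 0.29 apart. The PBS arrays of the 2 routes were 0.49 apart when irradiated and 0.01 apart when unirradiated. The irradiated PBS arrays stood at places 5 and 8 of that order. Their gap therefore spans several neighbour gaps and cannot serve as a measure for them.

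**Figure D1:**
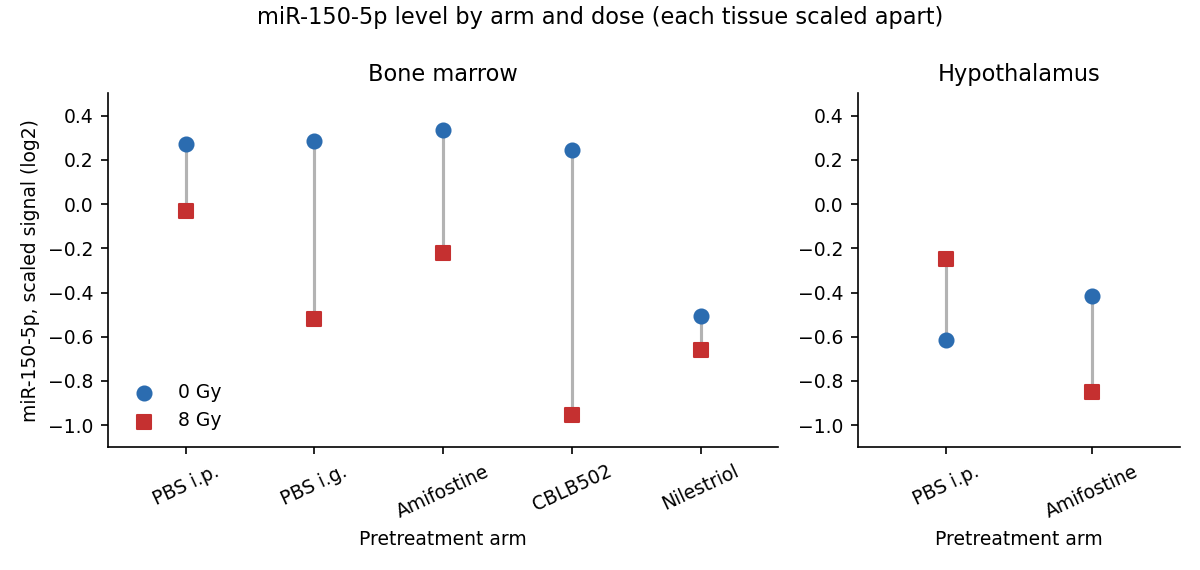
Scaled log2 signal of miR-150-5p in each arm at 0 Gy (blue circles) and 8 Gy (red squares), 1 array per point, with each tissue scaled apart. In bone marrow the irradiated array lay below the unirradiated one in 5 of 5 arms, by 0.16 to 1.20, and in hypothalamus the PBS and amifostine arms went opposite ways.

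miR-150-5p was lower in irradiated than in unirradiated marrow in 5 of 5 arms. The 8 minus 0 Gy difference was -0.30 after i.p. PBS, -0.80 after i.g. PBS, -0.56 after amifostine, -1.20 after CBLB502 and -0.16 after nilestriol. CBLB502 had the widest gap, a 2.29-fold lower level, and nilestriol the narrowest, where the unirradiated array was already low. Against the other tested miRNAs of the same arm, 1.89% had a lower difference in the CBLB502 arm and 30.7% in the nilestriol arm. The shorter and the longer probe gave the same picture, with differences of -1.15 and -1.21 in the CBLB502 arm and -0.15 and -0.16 in the nilestriol arm. In the authors' deposited table the 5 differences were -0.33, -0.82, -0.55, -1.33 and -0.19, in the same order of arms.

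Across the 5 arms the fitted difference was -0.60 ± 0.17 (SE), a 1.52-fold lower level, with a 95% confidence interval from -1.02 to -0.19. It missed the threshold of 0.05 (limma, adjusted p = 0.0703). At that threshold 12.7% of the 371 tested miRNAs were called, 34 higher and 13 lower, and miR-150-5p ranked 61st by p. The exact sign-flip permutation test over the 5 arm differences gave p = 0.0625 (two-sided), which is the smallest p that 5 arms allow. The call depended on the settings: the difference passed without the nilestriol arm (-0.72, adjusted p = 0.0402), with the normexp background (-0.47, adjusted p = 0.0105), with an offset instead of a floor on low values (-0.59, adjusted p = 0.0262) and when only miRNAs detected on all arrays were tested (-0.60, adjusted p = 0.0481). Without the CBLB502 arm it was -0.45. Slide 1 alone gave -0.76 (adjusted p = 0.0885) and slide 2 alone -0.32 (adjusted p = 0.401).

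In the 4 PBS arrays alone the difference was -0.55 ± 0.19 (SE, limma adjusted p = 0.223). There limma called 0% of 362 miRNAs, with 94 at an unadjusted p under 0.05, and between 0 and 50 were called under the other settings. These are bulk samples, so a smaller share of cells carrying miR-150 and less miR-150 per cell cannot be told apart. Which marrow cells carried it was not tested.

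miRNAs of red cell precursors moved the other way at 8 Gy. All 3 tested members were called higher, against 34 of all 371 tested miRNAs. Among them was miR-451a, which marks red cell maturation (1.40 ± 0.17, SE, limma adjusted p = 0.00922). The summed level of that list went from 5.51 to 6.90 (log2, lowest and highest array) at 0 Gy to 7.51 to 8.25 at 8 Gy. miR-223-3p, a granulocyte and monocyte miRNA, rose by 0.54 ± 0.10 (SE, limma adjusted p = 0.0260). The pan-blood miR-142-3p differed by -0.03 ± 0.17 (SE, limma adjusted p = 0.892), and the summed miR-142 level ran from 2.94 to 3.49 at 0 Gy and from 2.79 to 3.35 at 8 Gy. Their part in the miR-150-5p difference was not tested. Without any scaling of the arrays miR-150-5p differed by -0.68 (limma adjusted p = 0.0717).

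Other miRNAs linked to lymphocytes were followed as a list of 9, of which 8 were tested in the irradiation comparison. Of the 8, 2 were called lower and none higher, against 13 lower and 34 higher of all 371 tested miRNAs. In the list 7 of 8 had a value below 0 while the other, miR-342-5p, lay at the floor. The list's median was -0.26 against 0.09 over all tested miRNAs. miR-181a-5p, which sets the sensitivity of T-cell receptor signalling in developing thymocytes, fell by 0.67 ± 0.13 (SE, limma adjusted p = 0.0284). miR-181b-5p, its cluster neighbour, fell by 1.02 ± 0.13 (SE, limma adjusted p = 0.0124). The 6 others did not pass: miR-155-5p, induced on lymphocyte activation, was at -0.33 ± 0.14 (SE, limma adjusted p = 0.150), and miR-342-3p at -0.18 ± 0.18 (SE, limma adjusted p = 0.469).

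The levels of some miRNAs tracked miR-150-5p over the 10 bone marrow arrays, as a description of arrays that share dose groups and slides. Among 295 others detected on all 10, Pearson's r was highest for miR-19b-3p (0.95). miR-181a-5p (0.91), miR-3069-3p (0.89), miR-181b-5p (0.88) and miR-128-3p (0.87) followed. The lowest were miR-5135 (-0.92), miR-3472 (-0.91), miR-328-5p (-0.86), miR-5128 (-0.83) and miR-5112 (-0.82). Of these, miR-5135 lay near the floor, with levels from -5.31, the floor itself, on the unirradiated i.p. PBS array to -4.04 on the irradiated CBLB502 array. After each dose's mean was removed, r was 0.90 for miR-19b-3p, 0.83 for miR-181a-5p and -0.86 for miR-5135. The unirradiated nilestriol array lay among the irradiated ones for miR-181a-5p (-1.08, against -0.43 to 0.02 in the other unirradiated arrays) as it did for miR-150-5p. The other strand, miR-150-3p, had an r of -0.54, with 5 of 10 values at the floor.

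**Figure D2:**
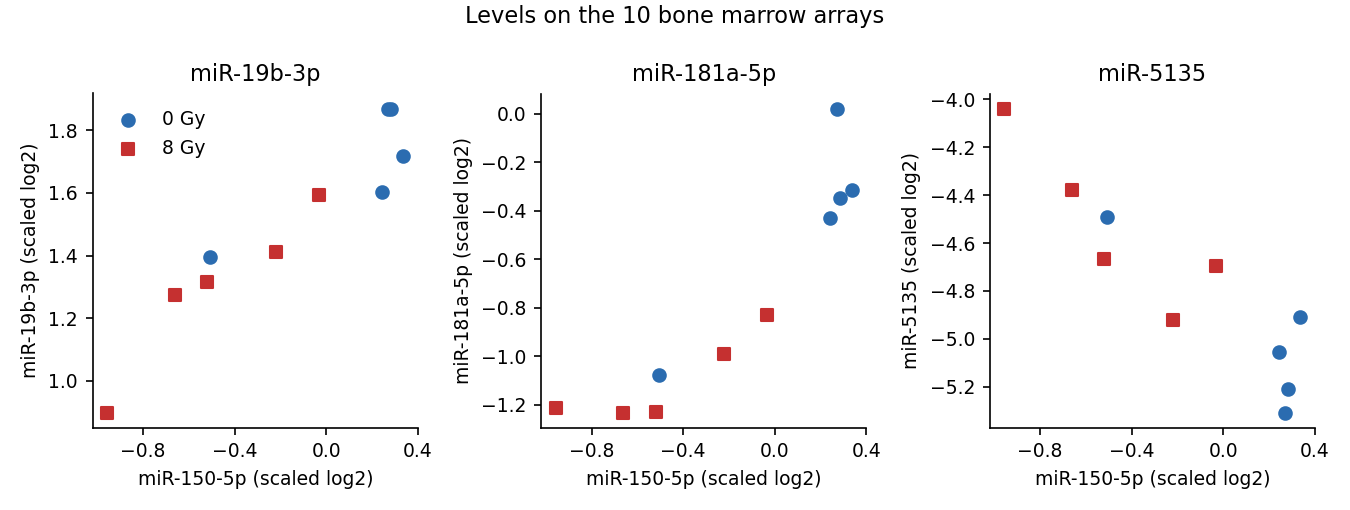
Scaled log2 levels of miR-19b-3p, miR-181a-5p and miR-5135 against miR-150-5p on the 10 bone marrow arrays, 1 point per array, blue circles at 0 Gy and red squares at 8 Gy. The first 2 were higher where miR-150-5p was higher (r of 0.95 and 0.91) and miR-5135, which lay near the floor, ran the other way (-0.92).

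For the drugs, each was first set beside the PBS array of its own route and dose. Amifostine differed from i.p. PBS by 0.07 at 0 Gy and -0.19 at 8 Gy. CBLB502 differed by -0.03 at 0 Gy and -0.92 at 8 Gy. Nilestriol differed from i.g. PBS by -0.79 at 0 Gy and -0.14 at 8 Gy. The wider gap was thus at 8 Gy for CBLB502 and at 0 Gy for nilestriol, with 1 array on each side.

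No drug difference of miR-150-5p passed the test. Over both doses and against all 4 PBS arrays, amifostine was at 0.06 ± 0.23 (SE), with a 95% confidence interval from -0.48 to 0.59 (limma adjusted p = 0.898). CBLB502 was at -0.36 ± 0.23, with an interval from -0.89 to 0.18 (limma adjusted p = 0.281). Nilestriol was at -0.58 ± 0.23, with an interval from -1.12 to -0.05 (limma adjusted p = 0.179). limma called 12.1% of 371 miRNAs for CBLB502 and 0% for amifostine and for nilestriol, where 76 and 95 had an unadjusted p under 0.05. Other settings called up to 13 miRNAs for amifostine and up to 95 for nilestriol. Without its irradiated array the CBLB502 value was 0.02, and without its unirradiated array it was -0.71. Nilestriol was at -0.29 without its unirradiated array.

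At single doses, nilestriol at 0 Gy was at -0.78 ± 0.25 (SE, limma adjusted p = 0.110), in a comparison where 9.43% of miRNAs were called. It passed when arrays were scaled by the 75th percentile over all miRNAs (-0.99, adjusted p = 0.0363), with normexp (-0.64, adjusted p = 0.0151) and with the offset (-0.76, adjusted p = 0.00833). CBLB502 at 8 Gy was at -0.68 ± 0.25 (SE, limma adjusted p = 0.178) and passed with the offset (-0.66, adjusted p = 0.0471). The remaining values were -0.39 for nilestriol at 8 Gy, 0.06 for amifostine at either dose and -0.03 for CBLB502 at 0 Gy. limma called 0% of miRNAs in each of the other single-dose comparisons, with 36 to 135 at an unadjusted p under 0.05 and up to 61 called under another setting. Those fits rest on a single drug array each, assumed to vary as the PBS pairs did.

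The irradiation difference itself did not differ detectably between drug and vehicle. Relative to PBS, it was -0.65 ± 0.36 (SE) with CBLB502, with an interval from -1.78 to 0.49 (limma adjusted p = 0.603). With nilestriol it was 0.40 ± 0.36, with an interval from -0.74 to 1.53 (limma adjusted p = 0.482), and with amifostine 0.00 ± 0.36, with an interval from -1.14 to 1.13. limma called 0% of 371 miRNAs in each of these 3 tests, with 38 to 85 at an unadjusted p under 0.05 and up to 52 called under another setting. The intervals are wide enough to hold both no difference and one larger than the irradiation difference across arms.

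**Figure D3:**
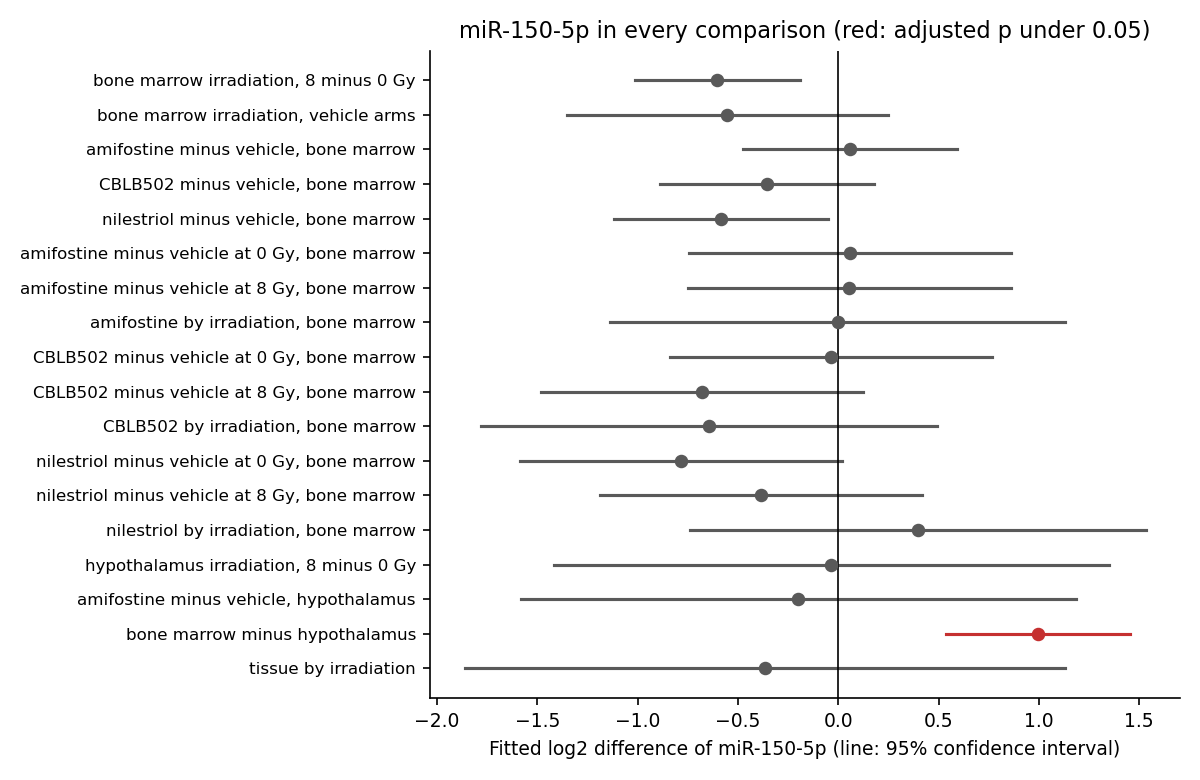
Fitted log2 differences of miR-150-5p in every comparison, with 95% confidence intervals as lines, and red where the limma adjusted p was under 0.05. Bone marrow minus hypothalamus, at 0.996, is the comparison that passed, and the interval for bone marrow irradiation (-1.02 to -0.19) did not reach 0 although its adjusted p was 0.0703.

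In hypothalamus miR-150-5p was detected on all 4 arrays, with signal intensities of 215.4 after PBS and 208.1 after amifostine at 0 Gy, and 239.4 and 205.4 at 8 Gy. The scaled levels were -0.61 and -0.41 at 0 Gy and -0.25 and -0.85 at 8 Gy. Irradiated minus unirradiated was 0.36 in the PBS arm and -0.43 in the amifostine arm, so the doses overlapped. The fitted irradiation difference was -0.04 ± 0.33 (SE), with an interval from -1.42 to 1.35 (limma adjusted p = 1), and amifostine minus PBS was -0.20 ± 0.33. limma called 0% of 544 miRNAs in both, with 0 and 1 at an unadjusted p under 0.05 and up to 9 under another setting. The difference between tissues in the irradiation difference was -0.37 ± 0.53 (SE, limma adjusted p = 1), with 0% of 530 called, 21 at an unadjusted p under 0.05 and up to 8 called under another setting.

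miR-150-5p was about 2.0-fold higher in bone marrow than in hypothalamus. Over the 4 conditions present in both tissues, bone marrow minus hypothalamus was 1.37 after PBS at 0 Gy, 0.51 after PBS at 8 Gy, 0.99 after amifostine at 0 Gy and 1.11 after amifostine at 8 Gy. Bone marrow was higher in 4 of 4 pairs, and its lowest level on this scale (-0.25) lay above the highest of hypothalamus (-0.60). The fitted difference was 0.996 ± 0.173 (SE), a 1.99-fold higher level (limma adjusted p = 0.00718). In the same test 56% of 530 miRNAs were called, 84 higher and 213 lower in marrow, so a call is common there. The size depended on how the tissues were put on one scale: it was 0.35 without scaling (adjusted p = 0.188), 1.81 with quantile normalization and 2.41 with the 75th percentile over all miRNAs. The median over all tested miRNAs moved with it, at -0.38 as reported, -0.86 without scaling, 0.24 with quantile normalization and 0.62 with the percentile over all miRNAs. Relative to that median miR-150-5p was 1.21 to 1.80 higher in marrow under the 4 scalings. With slide as a covariate the difference was 0.94 and no longer passed (adjusted p = 0.0768), and on slide 1 alone it was 1.09 (adjusted p = 0.119). In the amifostine pairs marrow was on slide 2 and hypothalamus on slide 3, so tissue and slide cannot be told apart there. Both of these estimates therefore come from the PBS pairs on slide 1, and they are not separate checks.

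The miRNAs that define blood cells had wider differences between the tissues. miR-142-3p was higher in marrow by 7.45 ± 0.26 (SE, limma adjusted p = 2.42e-05) and miR-223-3p by 9.52 ± 0.29 (SE, limma adjusted p = 1.82e-05). In hypothalamus the miR-142 strands summed to a signal of 10.6 to 22.1 and the miR-223 strands to 28.0 to 35.4, against at least 1818 and 8147 in marrow. miR-451a of red cell precursors, higher in marrow by 6.22 ± 0.42 (SE, limma adjusted p = 0.000225), was the one of 3 red cell strands detected in hypothalamus, where that list summed to 774.6 to 1082. Of the 9 lymphocyte-linked miRNAs, 2 were higher in marrow, miR-146a-5p (1.99) and miR-155-5p (3.05), and 6 were lower, among them miR-342-3p (-2.13) and miR-181c-5p (-1.84). Over all 530 tested miRNAs, 84 were called higher and 213 lower. The list's median was -0.98 against -0.38 over all tested miRNAs. Which cells carried the hypothalamic miR-150-5p was not tested.

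miR-150-3p stood near the limit of detection. The scanner software called it detected on 10 of 10 bone marrow and 2 of 4 hypothalamus arrays, but its 10- to 12-base probes gave signals of at most 9.31 in marrow, with 2, 0 and 2 of 100 spots above background. The 13-base probe alone was well above background, on 82 of 100 marrow spots against 4 of 40 in hypothalamus. Averaged over the 4 probes, miR-150-3p lay at the floor on 5 of 10 marrow arrays, all 4 PBS arrays and the unirradiated CBLB502 array, and on all 4 hypothalamus arrays.

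**Figure D4:**
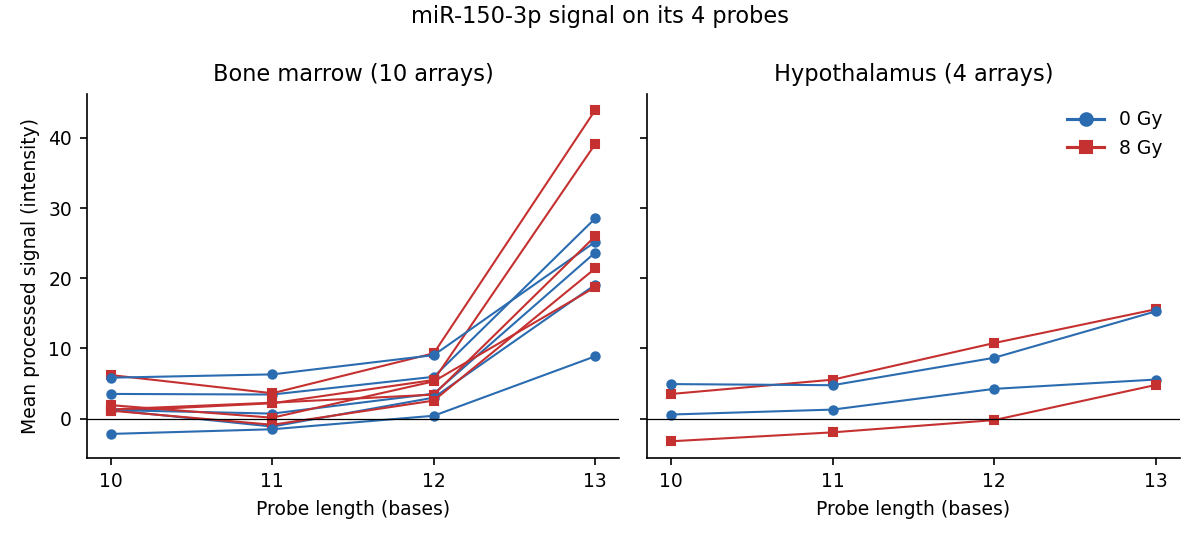
Mean processed signal of the 4 miR-150-3p probes by probe length, 1 line per array, blue at 0 Gy and red at 8 Gy. In bone marrow the 13-base probe reached 8.88 to 44.0 while the shorter probes stayed at or below 9.31, and in hypothalamus no array went above 15.6 on any probe.

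On the 13-base probe, unirradiated marrow gave signals of 8.88 after i.p. PBS, 19.1 after i.g. PBS, 28.5 after amifostine, 23.7 after CBLB502 and 25.2 after nilestriol. At 8 Gy the same arms gave 18.7, 21.4, 39.1, 44.0 and 26.0. The i.p. PBS array at 0 Gy was not well above background, with 1 of 10 spots, and the 2 highest arrays were irradiated amifostine and irradiated CBLB502. With that array at its own signal, the scaled level was -3.91 ± 0.51 (SD, n = 5) at 0 Gy and -3.31 ± 0.68 (SD, n = 5) at 8 Gy, and the groups overlapped.

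By this probe the 3p strand was higher at 8 Gy in the 4 arms that measured it at both doses, opposite to the 5p strand, but after i.g. PBS only marginally. In that arm the signals of 19.1 and 21.4 lay within the spread of the spots (SD 4.52 at 0 Gy and 3.19 at 8 Gy). The differences were 0.05 after i.g. PBS, 0.86 after amifostine, 0.98 after CBLB502 and 0.27 after nilestriol. After i.p. PBS the difference has only a bound, at least 0.30, with the 0 Gy array at the lowest signal among its probes well above background. The fitted difference was 0.49 ± 0.17 (SE, limma adjusted p = 0.0965) with that array at its bound, 0.61 ± 0.17 (SE, limma adjusted p = 0.0703) with it at its own signal, and 0.51 ± 0.20 (SE, limma adjusted p = 0.198) without the i.p. PBS arm. None of these passed, and the probe was singled out after its values were seen. The mean of all 4 probes gave 0.31 ± 0.23 (SE, limma adjusted p = 0.350), with arm differences from -0.26 to 1.19. In that mean both PBS arms were at 0 because their arrays lay at the floor at both doses. The 1.19 of CBLB502 started from a 0 Gy array at the floor. Only amifostine (0.62) and nilestriol (-0.26) lay above the floor at both doses. In the authors' deposited table the differences were 0.82 after i.p. PBS, 1.27 after amifostine, 1.14 after CBLB502 and 0.62 after nilestriol. There the i.g. PBS arm was lower at 8 Gy, at -0.51.

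**Figure D5:**
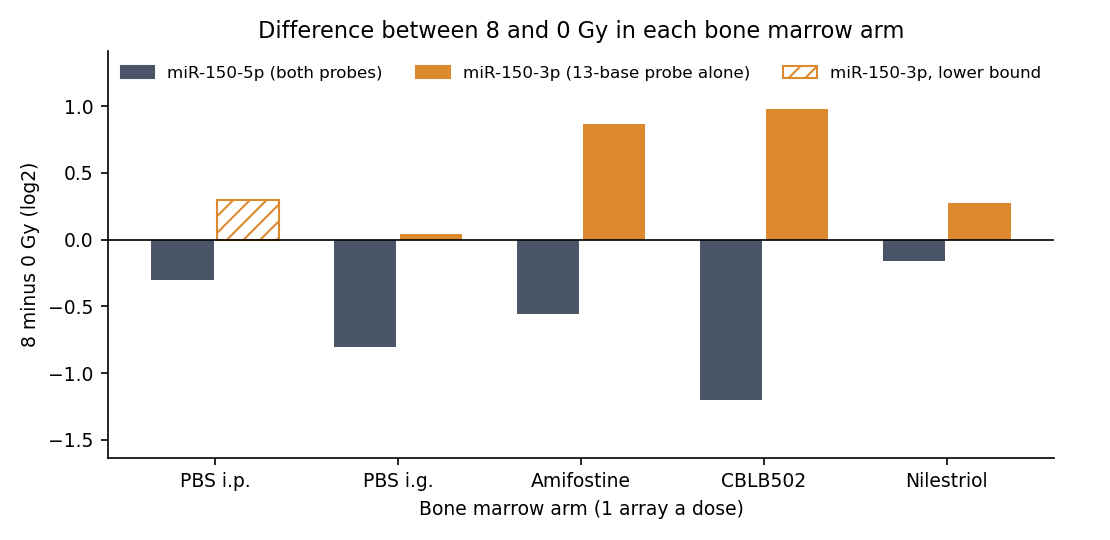
Log2 difference between 8 and 0 Gy in each bone marrow arm, for miR-150-5p over both probes (grey) and for the 13-base probe of miR-150-3p (orange), 1 array a dose. The hatched bar is a lower bound, since the i.p. PBS array at 0 Gy was not well above background. The 5p bars run from -0.16 to -1.20 and the 3p bars from 0.05 to 0.98.

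The 13-base 3p values of the 3 drugs were set against PBS with the unirradiated i.p. PBS array at its bound. CBLB502 differed by 0.90 ± 0.21 (SE, limma adjusted p = 0.0438), amifostine by 1.03 ± 0.21 (SE, limma adjusted p = 0.124) and nilestriol by 0.45 ± 0.21 (SE, limma adjusted p = 0.195). With that array at its own signal the differences were 1.04, 1.17 and 0.60 in the same order. The CBLB502 call was lost when that array was left out (0.96, limma adjusted p = 0.109), and it rests on a probe chosen after its values were seen. With the mean of all 4 probes none passed: the values were 0.59 for CBLB502 (limma adjusted p = 0.165), 0.72 for amifostine (0.223) and 0.35 for nilestriol (0.406). All 4 PBS arrays lay at the floor in that mean, so no drug array could lie below them. The sign and size of these values therefore depend on the floor. PBS and CBLB502 shared slide 1, while the other drugs were on slide 2.

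Between tissues, the mean marrow level of the 13-base probe was 1.86-fold above a bound for hypothalamus, where the probe was not well above background. Per hypothalamus array, the bound is the higher of the probe's own signal and the lowest signal among probes well above background. Of the matched marrow arrays, 3 of the 4 measured the probe. The other, i.p. PBS at 0 Gy, entered at its own signal, so the fold is not a strict minimum. In that pair marrow (-4.91) lay below the hypothalamus bound (-4.70). Marrow lay above the bound after PBS at 8 Gy (-3.92 against -4.30) and after amifostine at 0 Gy (-3.59 against -4.60) and 8 Gy (-2.60 against -4.99). The fitted difference of this probe, with values under the floor raised to it, was 1.59 ± 0.41 (SE, limma adjusted p = 0.0277), and it depends on that floor because the probe was above background on 0 of 4 hypothalamus arrays. The mean of all 4 probes differed by 0.50 ± 0.25 (SE, limma adjusted p = 0.151). All 4 hypothalamus arrays lay at the floor in that mean, so marrow could not lie below them and the value depends on the floor.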

How the data were processed

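RNA of 14 pools was measured on Agilent miRNA arrays. Spot intensity was deposited as written by Agilent Feature Extraction (10.7.1.1), which subtracted the background, per the file headers. The flags for outlier spots, spots above background and detected miRNAs are the scanner software's own, as deposited. The authors' deposited series matrix gives a log2 value per miRNA and array; its scaling and centring are not given in the sources used here.

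From these, the processed signal was averaged over spots per probe, leaving out outlier spots (4.42 to 5.27% of 49880), then over probes, and scaled to the 75th percentile of the miRNAs that every array of a fit detected (296 in bone marrow, 471 in hypothalamus, 277 for matched arrays). Values under a floor (log2 -5.31, -5.28 and -5.61; the 5th percentile of detected signal, as the median of the arrays) were raised to it. miRNAs detected on at least 0.5 of the arrays were tested with limma 3.58.1 (lmFit, eBayes; R 4.3.3, data.table version 1.17.8), two-sided, Benjamini-Hochberg at 0.05 over all tested miRNAs, with arm, dose or condition as block or covariate. The scripts were tested on simulated data. Figures used Python 3.11.15, pandas 2.3.3, NumPy 2.4.6 and matplotlib 3.10.9. The number of arrays limits the precision.

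The members, lists and comparisons were chosen with earlier results of these data known. Named by rule were both strands, miRNAs sharing a seed, the 5 highest and 5 lowest correlations with miR-150-5p, and lymphocyte-linked miRNAs that passed the irradiation test; a few others were chosen after their values were seen. Lists of blood, granulocyte, red cell, neuronal, oligodendrocyte, muscle and stromal miRNAs checked the tissues: the oligodendrocyte strands were lower in marrow in 2 of 2, the stromal ones higher in 2 of 4 and lower in 2, and the muscle ones passed in 0 of 2 tested. In that comparison 297 of all 530 tested miRNAs passed.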

Additional observations from a re-analysis of the deposited data

Results flagged for a closer look

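In unirradiated bone marrow the nilestriol array was far from the other arms for miR-150-5p, at -0.51 (scaled log2) where the nearest of the other 4 arrays was at 0.24. Its gap was 0.889 of the range of the 5 arrays, above the 0.71 that Dixon's test allows, and chance alone flags about 1 in 20 such groups. Several groups of values were searched this way, so a chance flag somewhere among them is likelier than that. On the same array the lymphocyte-linked miRNAs summed to 1.06 against 1.73 to 2.12 on the other unirradiated arrays, and the red cell precursor miRNAs to 5.51 against 6.58 to 6.90. Most other lists were lowest there too: stromal (-3.24 against -2.25 to -1.08), muscle (-3.38 against -2.68 to -2.22) and neuronal (-2.03 against -1.47 to -0.92). The neuronal sum is not a separate list here. It rested almost wholly on miR-128-3p, the 1 of 5 detected in marrow and one of the miRNAs named above for tracking miR-150-5p. The miR-142 sum was narrowly the lowest (2.94 against 2.95 to 3.49). The granulocyte and monocyte sum (5.77) and the oligodendrocyte sum (-2.77) lay within the range of the other arrays. Their part in the miR-150-5p value was not tested.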

How the results depend on the processing

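Each test of miR-150-5p was repeated under other scalings, backgrounds, summaries, filters and variance settings and with arrays or arms left out; taking single probes, setting an array to its bound or leaving it out for the longest 3p probe, CBLB502 on slide 1 and the tissue difference on slide 1 were chosen after seeing the data. For bone marrow irradiation miR-150-5p was below 0 under all 21 alternatives (-0.76 to -0.32) and passed in 4: normexp (-0.47), offset (-0.59), detection on all arrays (-0.60) and without the nilestriol arm (-0.72; -0.72 to -0.45 over left-out arms). The tissue difference was above 0 under all 19 (0.35 to 2.41) and was not called without scaling (0.35), without the detection filter (0.996), with slide as a covariate (0.94) or on slide 1 alone (1.09). Nilestriol at 0 Gy passed with the percentile over all miRNAs (-0.99), normexp (-0.64) and the offset (-0.76), and CBLB502 at 8 Gy with the offset (-0.66). Values near 0 changed sign. For amifostine this was over both doses with the percentile over all miRNAs (-0.20), no scaling (-0.067) and vehicle of the same route (-0.061), and leaving out arrays (-0.027 to 0.23). At 0 Gy it was the percentile (-0.19); at 8 Gy the percentile (-0.21), no scaling (-0.36) and left-out arrays (-0.19 to 0.34). By irradiation it was quantile normalization (0.075), scanner totals (0.19), the authors' table (0.025), the longer probe (0.022) and left-out arrays (-0.25 to 0.21). CBLB502 turned without scaling at 0 Gy (0.048) and over both doses on leaving out arrays (-0.71 to 0.020). Hypothalamus irradiation turned with the percentile (0.048), quantile (0.089), no scaling (0.067), totals (0.14) and the authors' table (0.10). For miR-150-3p, nilestriol turned with normexp (-0.090), totals (-0.067), the authors' table (-0.25) and left-out arrays (-0.042 to 0.73). CBLB502 turned with totals (-0.39) and passed with the offset (0.66) and the longest probe (1.04, or 0.90 with the 0 Gy i.p. PBS array at its bound). On leaving out arrays CBLB502 ran from 0.070 to 1.20 and passed in only a part of these fits. The tissue difference turned with totals (-0.56) and passed with normexp (0.52), the authors' table (5.78) and the longest probe (1.59). The cause was not tested in any of these. Calls for bone marrow irradiation numbered 47, from 0 without the detection filter to 89 without the nilestriol arm; for CBLB502 45, from 0 without scaling to 107 on slide 1; for nilestriol at 0 Gy 35, from 0 without scaling to 153 with the offset; for the tissue difference 297, from 160 to 382. Higher and lower calls split 34 and 13 for irradiation (22 and 24 with quantile normalization, 21 and 13 with the percentile), 20 and 25 for CBLB502 (6 and 42; 13 and 70) and 84 and 213 for tissue (203 and 159; 242 and 134). The labels hold no replicate numbers; doses were paired within arms, and without that block for the arm miR-150-5p irradiation was at -0.60 (limma adjusted p = 0.118). Fits of miR-150-3p in hypothalamus, at single doses and in the vehicle arms are not reported: all 4 hypothalamus arrays and all 4 bone marrow PBS arrays, the vehicle side, lay at the floor. The drug and tissue differences of the miR-150-3p mean over its probes are given, but in the main setting they rest on these same floored arrays. Signal near background limits miR-150-3p, and the number of pools limits every comparison.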
